A study of Caenorhabditis elegans with 2 samples.

Results

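The 6 Hox genes of Caenorhabditis elegans and 4 genes for their homeodomain cofactors were examined for peaks of CEH-31, a Bar-class homeodomain protein, in late embryos. The members were chosen by name, as the Hox genes ceh-13, lin-39, mab-5, egl-5, php-3 and nob-1, the PBC-class cofactor genes ceh-20, ceh-40 and ceh-60, and the Meis-class cofactor gene unc-62. They are 10 of 19973 protein-coding genes on the 6 nuclear chromosomes in Ensembl release 115, and all 10 were matched by symbol. For each gene, peak summits were taken from 10 kb upstream of the annotated start to the gene end, a stretch called the gene window here.

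The measurements were chromatin immunoprecipitation sequencing of 2 biological replicates, which form 1 group. Whole hermaphrodites of strain OP370 (genotype unc-119(tm4063) III; wgIs370) were collected as late embryos 5 h after egg bleaching. The integrated transgene wgIs370 supplies CEH-31 carrying GFP and FLAG at its C terminus, and the fusion was precipitated by its GFP. The labels do not give the promoter of the transgene, and whole animals do not show in which cells a peak arose.

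Hox genes encode homeodomain transcription factors that give cells their position along the body axis. In this worm ceh-13 acts in the anterior, lin-39 in the midbody and the vulva, mab-5 in the posterior body, egl-5 in the tail, and nob-1 and php-3 in posterior patterning of the embryo. PBC proteins (Pbx in mammals, Extradenticle in flies) and Meis proteins (Homothorax in flies) bind DNA beside Hox proteins and sharpen their choice of sites. Bar-class proteins such as CEH-31 carry a related homeodomain but are not Hox proteins.

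Among the 10 genes, ceh-20 and unc-62 were the only ones with a peak in the optimal list, which holds the 3697 peaks that the authors kept at their threshold of the irreproducible discovery rate. Of these 5 summits 4 are shown first, with the strongest summits at Hox genes, because they are the sites described in most detail. Each line gives the plus strand of WBcel235 (ce11) from the RefSeq copy of that genome, 100 bp either side of the summit. At the summit 10570 bp inside unc-62, which lies in the 5′ UTR of 1 transcript, only 30 bases around a core are given. Capitals mark matches to the 8-base PBC-Hox core TGATNNAT, the Bar-class cores TAATTG and TAAACG, the Meis-class core TGACAG, and GAGAGA, each searched on both strands without removing overlaps between cores.

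ceh-20, 7792 bp upstream, chrIII:6971992-6972192: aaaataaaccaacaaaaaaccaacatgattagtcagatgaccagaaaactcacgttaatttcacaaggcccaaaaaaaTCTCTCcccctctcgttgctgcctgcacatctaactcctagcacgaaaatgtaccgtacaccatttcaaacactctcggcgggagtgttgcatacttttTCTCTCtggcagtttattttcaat
ceh-20, 925 bp upstream, chrIII:6978859-6979059: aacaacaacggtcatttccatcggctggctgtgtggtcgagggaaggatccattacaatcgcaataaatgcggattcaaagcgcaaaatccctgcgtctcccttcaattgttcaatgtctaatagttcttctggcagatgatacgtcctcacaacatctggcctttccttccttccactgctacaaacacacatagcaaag
unc-62, 10570 bp downstream, chrV:4507993-4508022: agccttggcaaTGATGGATcgccgcagctg
unc-62, 5909 bp upstream, chrV:4491452-4491652: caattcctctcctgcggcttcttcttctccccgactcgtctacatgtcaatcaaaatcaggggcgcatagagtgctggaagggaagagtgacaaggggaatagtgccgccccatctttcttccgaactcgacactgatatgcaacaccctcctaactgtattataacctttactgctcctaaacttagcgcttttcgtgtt
egl-5, 1929 bp upstream, chrIII:7812345-7812545: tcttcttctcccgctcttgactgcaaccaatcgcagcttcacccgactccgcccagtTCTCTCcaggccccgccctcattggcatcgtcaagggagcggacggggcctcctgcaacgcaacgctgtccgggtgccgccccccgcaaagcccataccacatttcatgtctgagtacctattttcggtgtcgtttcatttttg
nob-1, 2053 bp downstream, chrIII:12082163-12082363: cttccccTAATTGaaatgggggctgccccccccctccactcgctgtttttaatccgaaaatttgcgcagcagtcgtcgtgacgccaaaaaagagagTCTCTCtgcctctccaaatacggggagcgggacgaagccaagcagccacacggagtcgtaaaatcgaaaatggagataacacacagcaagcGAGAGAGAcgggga

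The homeodomain cores searched (PBC-Hox, Bar-class and Meis-class) were absent from 4 of the 5 optimal windows, and no other homeodomain sequence was searched. The unc-62 window at 10570 bp held 1 PBC-Hox core, TGATGGAT, which began 27 bp before the summit. GAGAGA or its reverse complement TCTCTC was in 3 of the 5 optimal windows. The egl-5 line held 1 GAGAGA match and none of the homeodomain cores searched. The nob-1 line held TAATTG 93 bp before its summit and 3 GAGAGA matches, of which 2 overlap.

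The peak signal is the score that the authors' caller gave each peak, on a scale not given in the sources used here, so it served to rank peaks within a list. The optimal list ran from a signal of 90.5 to 3595 with a median of 149, and its peaks were the 3697 strongest of 24555 in the relaxed list called on the pooled replicates. The first pooled peak outside it had a signal of 90.5 as well. By its deposited name the pooled list holds peaks and background, as input for the irreproducible discovery rate. A summit found only there may therefore be background. Of its 24555 entries, 7302 (29.7%) had a −log10 q of at least 1. The relaxed lists of replicates 1 and 2 held 21175 and 22471 peaks. Peak lists carry no read counts, so the depth is unknown, and no value below has an error from depth.

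Of the 10 genes, 2 had an optimal summit in the gene window, against 35.0% of all protein-coding genes. In the promoter window, which spans 1000 bp before and 200 bp after the gene start, 1 of 10 had one, ceh-20, against 11.5%. None of the 6 Hox genes had an optimal summit in either window (0 of 6, 95% Wilson interval up to 39.0%), while 2 of the 4 cofactor genes had one. The gene windows of the members were longer than most, with a median of 14.9 kb against 12.0 kb over all genes. The interval treats genes as independent draws, though these were chosen by name. The windows of php-3 and nob-1 also overlap, as do those of lin-39 and ceh-13. With 10 genes these shares are descriptions, and the difference between Hox and cofactor genes was not tested.

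In the relaxed pooled list, 8 of 10 genes had a summit in the gene window, against 77.7% of all genes, and 5 of 10 had one in the promoter window, against 33.5%. The first share is near that of all genes. The member windows together covered 145 kb and held 50 pooled summits, or 34.5 per 100 kb against 24.5 per 100 kb over the genome, and without unc-62 the density was 28.1. Chromosomes differ in this density, and the windows of the 7 members on III held 34 summits in 90.8 kb, or 37.4 per 100 kb against 29.9 for that chromosome. The windows of ceh-40 and ceh-60 on X held none. For optimal summits the density was near that of the genome, with 5 in the 145 kb, or 3.45 per 100 kb against 3.69. Of these, 3 were in the unc-62 window on V. The windows on III held only the 2 of ceh-20 in their 90.8 kb, against 4.49 per 100 kb for that chromosome.

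**Figure D1:**
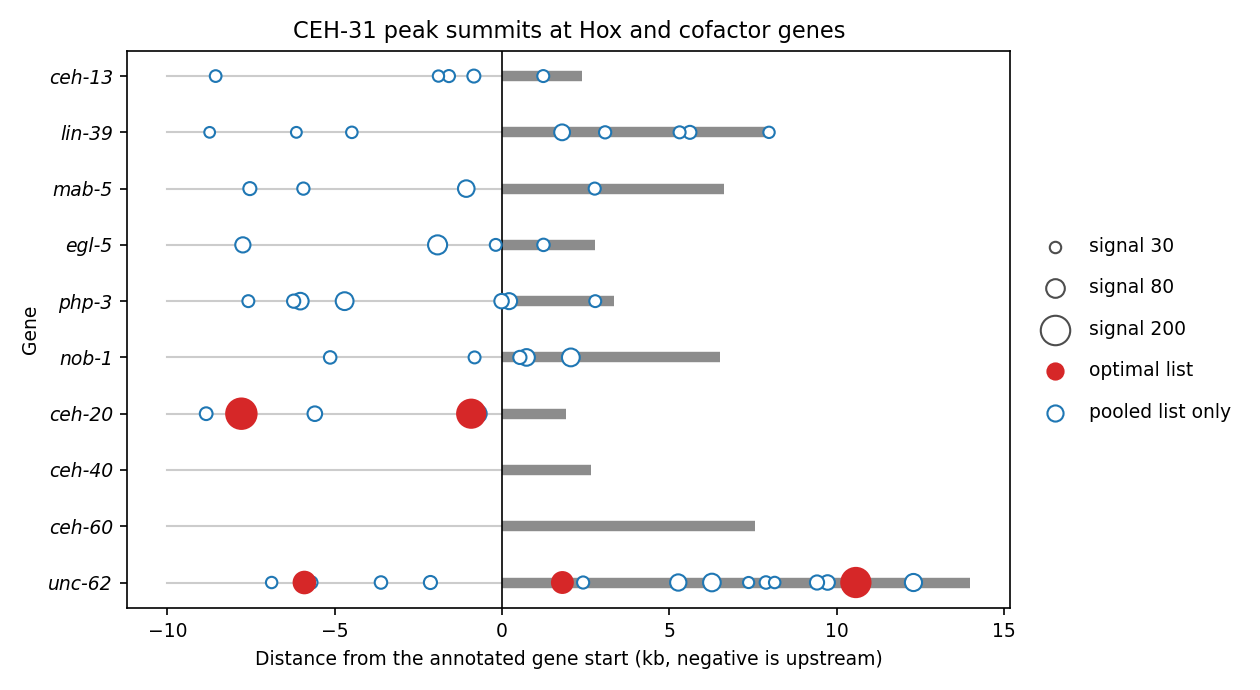
Each row is 1 gene, with the gene body as a thick grey bar and the 10 kb upstream as a thin line, and each circle is a summit of the relaxed pooled list, placed by its distance from the annotated start in kb, with an area that grows with peak signal. Red circles are in the optimal list and occur at ceh-20 (2 summits) and unc-62 (3 summits), and ceh-40 and ceh-60 have none of either kind.

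The PBC gene ceh-20, the worm Pbx gene, had the only optimal summit in a promoter window. It lies on III from 6979884 to 6981785 on the plus strand. The summit 925 bp upstream of its start (peak III, 6978739 to 6979178, summit 6978959) was intergenic, and no other protein-coding gene had it in its promoter window. Its signal was 182 in the optimal list (rank 1324), 89.2 in replicate 1 (rank 1296) and 93.9 in replicate 2 (rank 1356). It held nearly the same rank in all 3 lists.

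A second optimal summit in the ceh-20 window was stronger but closer to other genes. It lay 7792 bp upstream of ceh-20 (peak III, 6971997 to 6972210, summit 6972092), with a signal of 212 (rank 970), 100.1 in replicate 1 (rank 1049) and 117 in replicate 2 (rank 880). The summit was 161 bp upstream of rfc-4, a gene for a subunit of the replication factor C clamp loader, and 380 bp upstream of eef-1A.1, a translation elongation factor gene read in the other direction. Each of those genes had the summit in its promoter window. When the ceh-20 window was cut at the next gene upstream, only the summit at 925 bp was left, with a signal below the 196 of the strongest unc-62 summit.

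The remaining pooled summits in the ceh-20 window were weaker. A shoulder 200 bp from the promoter summit, 725 bp upstream, had a pooled signal of 71.4 (rank 5141) and 27.8 in replicate 2. Its nearest replicate 1 summit was the one also matched to the summit at 925 bp. The others, with signals of 49.0 and 37.4, lay in the 5′ UTR of F31E3.2 and in a coding exon of eef-1A.1.

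The Meis gene unc-62, the worm counterpart of Homothorax, had the most summits, 16 in the pooled list and 3 in the optimal list. It lies on V from 4497461 to 4511449 on the plus strand and has 18 annotated transcripts with 15 different starts. Its gene window was the longest of the members, 24.0 kb against 11.9 kb for ceh-20. Per 10 kb of window, unc-62 had 6.67 pooled summits against 4.20 for ceh-20, but 1.25 optimal summits against 1.68. The 1.68 counts the ceh-20 summit at 7792 bp, which is in the promoter windows of rfc-4 and eef-1A.1. The strongest optimal summit of unc-62 was 10570 bp inside the gene (peak V, 4507811 to 4508250, summit 4508031), in an intron of 17 transcripts and in a 5′ UTR exon of 1. It was 827 bp past the nearest unc-62 transcript start, and the nearest gene start was that of T28F12.1. Its signal was 196 (rank 1146), 92.2 in replicate 1 (rank 1224) and 110 in replicate 2 (rank 997), so it was close to the stronger ceh-20 summits in every list.

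The other optimal unc-62 summits were weaker and nearly equal. The intergenic summit 5909 bp upstream (peak V, 4491332 to 4491771, summit 4491552) had a signal of 107 (rank 2968), 45.7 in replicate 1 (rank 3790) and 56.5 in replicate 2 (rank 2960). The summit 1800 bp inside the gene had 100.1 (rank 3261), 46.7 in replicate 1 (rank 3660) and 57.3 in replicate 2 (rank 2910). Their order in the optimal list was the opposite of that in both replicates, so they did not separate beyond the spread of the lists.

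The summit 1800 bp inside unc-62 lay in an intron of 5 transcripts and 66 bp upstream of another annotated transcript start. It therefore fell in a promoter window once the start of any transcript was allowed, and unc-62 then joined ceh-20 as a gene with an optimal promoter summit. No optimal summit was in the promoter window of the first unc-62 start. The 5 optimal summits had the same order in both replicates. The summit of ceh-20 at 7792 bp came first, then that of unc-62 at 10570 bp, ceh-20 at 925 bp, unc-62 at 1800 bp and unc-62 at 5909 bp.

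Of the 13 other pooled unc-62 summits, 5 had a summit within 200 bp in both replicates, 3 in replicate 1 alone and 5 in replicate 2 alone. The share in both, 38.5%, was near the 40.2% of all pooled summits outside the optimal list. The strongest of the 13, 6268 bp inside the gene, had a signal of 71.6 (rank 5123), with 36.7 in replicate 1 and 37.7 in replicate 2. The next, 12291 bp inside, had a signal of 67.6 and differed most between replicates, with 54.7 in replicate 2 (rank 3106) and 16.8 for the nearest summit of replicate 1, 157 bp away (rank 20152).

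The PBC genes on X had no summit in the optimal or pooled lists. For ceh-40, a Pbx-family gene related to ceh-20 (X, 12318126 to 12320777, minus strand), the only records were in the replicate lists, with 22.7 in replicate 1 65 bp upstream of the start (rank 12028) and at most 20.6 in replicate 2, 131 bp upstream (rank 14752). For ceh-60, a Pbx-family gene that acts in yolk production (X, 6522596 to 6530146, minus strand), there was no summit in any of the 4 lists over a window of 17.6 kb. The lowest pooled signal recorded was 25.3, so weaker sites would not be listed.

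**Figure D2:**
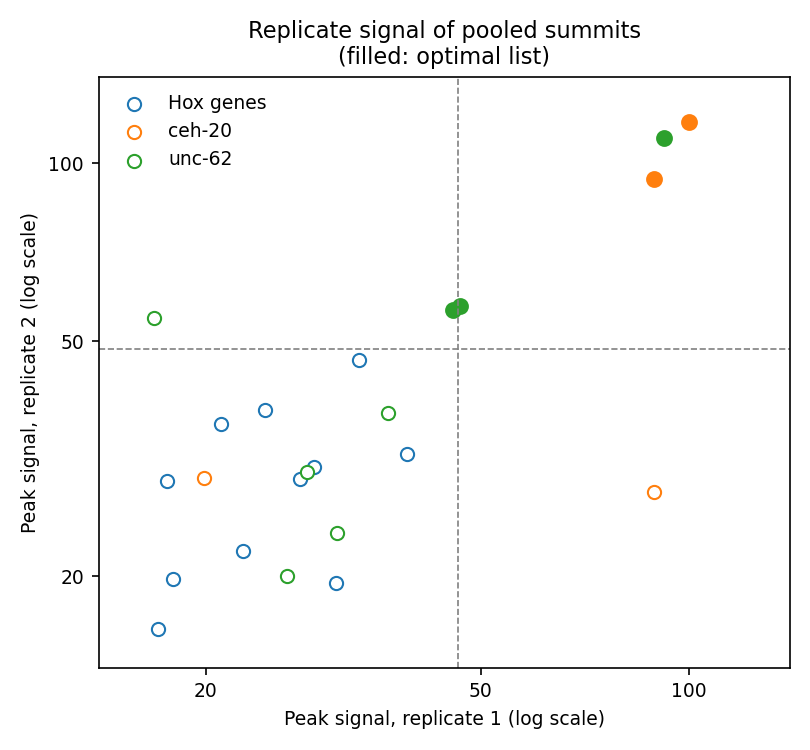
Each circle is a pooled summit of a member that has a summit within 200 bp in both replicates, with its signal in replicate 1 (x axis) and replicate 2 (y axis), both on log scales; filled circles are in the optimal list and dashed lines mark the signal of the peak ranked 3697 in each replicate (46.4 and 48.6). Of the 5 filled circles 4 lie above both lines and 1 of unc-62 (45.7 in replicate 1) just left of the vertical one; the open ceh-20 circle at a replicate 1 signal of 89.2 shares that summit with a filled one, and no Hox summit passes either line.

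At the Hox genes, every summit was below the optimal cut. Their windows held 29 pooled summits, counting those shared by php-3 and nob-1 once, with signals from 26.4 to 83.6 and a median of 34.5. They were intergenic in 16 cases, intronic in 11, in a coding exon in 1 and in a UTR in 1. Of these, 11 (37.9%) had a summit within 200 bp in both replicates, against 40.2% of the 20858 pooled summits outside the optimal list over the genome. A deposited −log10 q of at least 1 was reached by 6 of the 29 (20.7%), against 17.3% of the same 20858 summits.

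The anterior Hox gene ceh-13, the worm counterpart of labial (III, 7555660 to 7558041, plus strand), had the lowest maximum among the Hox genes. Its strongest pooled summit, 845 bp upstream, had a signal of 38.8 (rank 13082), 17.9 in replicate 1 (rank 18146) and 19.8 in replicate 2 (rank 15846). The other 4 summits had signals from 29.5 to 33.6, and none of its 5 summits had a −log10 q of 1. Only the summit at 845 bp had a partner in both replicates, and single-replicate summits in the window reached 23.6 in replicate 1 (rank 11258) and 22.5 in replicate 2 (rank 12662).

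At lin-39, which specifies midbody cells (III, 7528641 to 7536632, minus strand), the strongest of 8 pooled summits lay in an intron, 1792 bp inside the gene. It was 35 bp upstream of the start of the shorter of 2 annotated transcripts, at 7534805. Its signal was 57.3 (rank 7136), 21.0 in replicate 1 (rank 13808) and 36.2 in replicate 2 (rank 5645). The other 7 had signals from 26.4 to 38.9, and none of the pooled summits was in the promoter window of the first lin-39 start.

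The mab-5 gene, which acts in the posterior body and in neuroblast migration (III, 7776835 to 7783454, minus strand), had its strongest summit 1072 bp upstream. The signal was 63.1 (rank 6135), 24.4 in replicate 1 (rank 10636, 100 bp away) and 38.2 in replicate 2 (rank 5200). This pooled summit lay just outside the promoter window, while its replicate 1 partner, 972 bp upstream, lay inside it, and the other 3 had signals from 33.5 to 39.0.

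The highest pooled signal at a Hox gene was at egl-5, though the nob-1 summit exceeded it in replicate 1. The egl-5 gene is of the Abdominal-B type and is needed in the tail (III, 7814374 to 7817141, plus strand). Its summit 1929 bp upstream (peak III, 7812225 to 7812664, summit 7812445) was intergenic and had a signal of 83.6 (rank 4117) with a −log10 q of 2.55. The replicates gave 33.3 (rank 6168) and 46.5 (rank 3928), so it was outside the 3697 strongest of each. A summit in the promoter window, 191 bp upstream, had 32.7 in the pooled list and 17.1 and 16.3 in the replicates, near the lowest values of those lists (16.3 and 15.8).

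The posterior genes php-3 (III, 12074218 to 12077556) and nob-1 (III, 12077793 to 12084316) are neighbours on the minus strand, so their windows overlap and 4 pooled summits belong to both. The strongest, in an intron of nob-1 2053 bp from its start, had a signal of 72.9 (rank 4987), with 39.1 in replicate 1 (rank 4785) and 32.2 in replicate 2 (rank 6815). A further intronic summit 729 bp inside nob-1 had 63.6, with 28.7 and 30.6 in the replicates. For php-3 itself, a summit in its coding exon 208 bp from the start had 59.0, with 27.4 and 29.3 in the replicates, and another 17 bp upstream had 48.0, with 24.7 in replicate 2 and no partner in replicate 1.

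Ordered by the strongest pooled signal in the gene window, ceh-20 (212) and unc-62 (196) came first, followed by egl-5 (83.6), nob-1 and php-3 (72.9 for the shared summit), mab-5 (63.1), lin-39 (57.3) and ceh-13 (38.8). The order of the first pair rests on the ceh-20 summit in the promoter windows of rfc-4 and eef-1A.1, since without it ceh-20 had 182. The ranks of egl-5 and of the nob-1 summit changed places between replicates, with nob-1 ahead in replicate 1 and egl-5 ahead in replicate 2, so these neighbours were not separated. The same holds for mab-5 and lin-39 against the nob-1 summit, which were behind it in replicate 1 and ahead in replicate 2. Over all protein-coding genes, 87.0% had a weaker strongest summit than ceh-20, 85.0% than unc-62, 62.7% than egl-5 and 34.9% than ceh-13, counting genes with none as lower. Among the 59 other genes named ceh, 51 had a pooled summit in the window, with a median strongest signal of 72.3, against 72.9 for the 8 members that had one and 79.5 for all genes that had one.

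**Figure D3:**
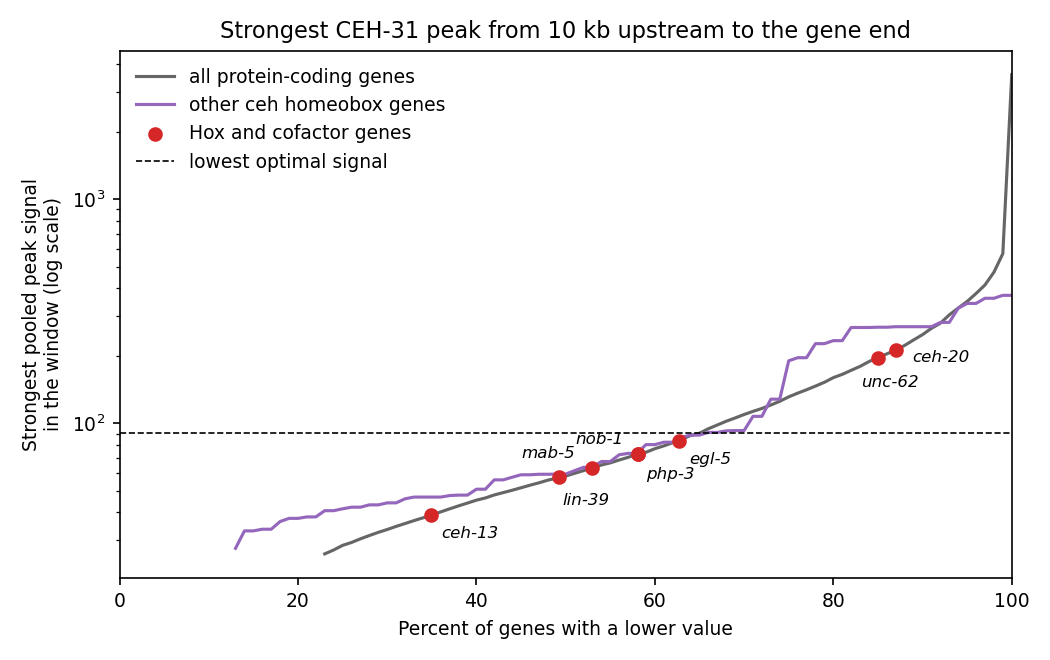
The strongest pooled peak signal in the gene window (y axis, log scale) is set against the percent of genes with a lower value for all protein-coding genes (grey line) and for the other genes named ceh (purple line, against their own percentages); red points are the members, placed on the scale of all genes. The 6 Hox genes lie below the dashed line at the lowest optimal signal (90.5), and ceh-20 and unc-62 lie above it; ceh-40 and ceh-60 have no pooled summit and are not drawn.

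Beyond the gene windows, optimal summits were also distant from most Hox genes. The nearest optimal summit was 14.9 kb from the start of ceh-13, 15.8 kb from lin-39, 40.3 kb from egl-5, 49.6 kb from mab-5, 35.3 kb from php-3 and 42.0 kb from nob-1. The median over all protein-coding genes was 11.8 kb, with the middle 50% from 3.84 to 27.9 kb, so 4 of the 6 lay above the upper quartile, php-3 and nob-1 with the same summit. The nearest summits lay on the downstream side of the gene start in all 6 cases. For lin-39 it was a strong one (signal 715, rank 26), 15 bp upstream of cux-7, and for egl-5 it was 442 bp upstream of the ribosomal protein gene rpl-35 (signal 544, rank 81).

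From lin-39 to egl-5, a span of 289 kb on III with 43 protein-coding genes that also holds ceh-13 and mab-5, there were 12 optimal summits. That is 4.16 per 100 kb, against 4.49 for the whole chromosome. They sat at or near other genes. The strongest had signals of 294 and 280, nearest to the starts of lido-18 and R13A5.7. Others were at rpl-9 (171) and at lin-13, which encodes a zinc finger protein of vulval development (168 and 248). Introns of ncl-1, which acts in nucleolus size control, held 4 summits from 91.8 to 201. All of these but the strongest were nearest to the start of ZK112.4, which had a further summit of 234 in a coding exon. The pooled list held 71 summits in the span, or 24.6 per 100 kb against 29.9 for the chromosome.

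The homeodomain cores were compared over windows of 201 bp. The PBC-Hox core was in 1 of the 5 optimal member windows and in 8 of the 29 Hox windows (27.6%), against 6.79% of all optimal windows and 11.6% of pooled windows outside the optimal list. Over all 45 weaker member windows it was in 11 (24.4%). A Bar-class core was in none of the 5 optimal member windows and in 7 of the 29 Hox windows (24.1%), against 17.3% and 19.6% over the genome. The Meis-class core was in 3 of the 29 Hox windows (10.3%, against 6.99% of the weaker pooled windows).

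The GAGAGA run, searched after the sequences had been read, was in 3 of 5 optimal member windows and 45.3% of all optimal windows. It was in 11 of the 29 Hox windows (37.9%), against 19.9% of the weaker pooled windows. The median GC content was 41.3% at the Hox summits and 41.8% at the weaker pooled summits over the genome. A match describes letters in these windows and was not tied to binding of any protein.

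Genes of pathways known to set Hox expression were counted in the same way. Of 16 Polycomb, trithorax and related genes, which keep Hox genes silent or active through chromatin, 11 had an optimal promoter summit (68.8%, 95% Wilson interval 44.4% to 85.8%) and 14 had one in the gene window, against the 11.5% and 35.0% of all genes. The strongest were at sor-1, a repressor of Hox expression (signal 417, rank 198, 469 bp upstream), the histone H3K4 methyltransferase gene set-2 (392, rank 242, 271 bp upstream) and the trithorax-type gene lin-59 (336, rank 365, 479 bp upstream). In the replicates these ranked 341 and 124, 223 and 258, and 347 and 350.

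The other 8 were set-16, utx-1, sor-3, spat-3, sop-2, lin-49, egl-27 and mes-2, with signals from 335 down to 104. They include mes-2, the worm counterpart of Enhancer of zeste (104, 129 bp upstream), and sop-2, a repressor of Hox genes (159, 588 bp upstream). The summit of set-16 was nearer to drr-2, and that of egl-27 had ranks as far apart as 7857 in replicate 1 and 1839 in replicate 2. The median strongest pooled signal in the gene window was 205 for this list and 79.5 for all genes with a pooled summit. The gene windows of this list had a median of 15.8 kb, against 12.0 kb over all genes. Together those windows held 1.09 optimal summits per 10 kb, against 0.383 for all genes. Many genes of the list have wide functions in chromatin, and their share was given no test.

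The Wnt pathway acts upstream of lin-39, mab-5 and egl-5 in several cells, but its listed genes were not each tied to Hox control. Of these 24 genes, 16 had an optimal summit in the gene window (66.7%, against 35.0% of all genes). Their gene windows had a median of 14.5 kb, against 12.0 kb over all genes. Together those windows held 0.925 optimal summits per 10 kb, against 0.383 for all genes. In the promoter window 5 of the 24 had an optimal summit (20.8%, against 11.5%, 95% Wilson interval 9.24% to 40.5%). The strongest were at the Dishevelled gene mig-5 (signal 192, 200 bp upstream), the beta-catenin gene wrm-1 (170, 795 bp upstream) and the TCF gene pop-1 (154, 104 bp upstream), with replicate ranks of 1112 and 1312, 2149 and 1107, and 1577 and 1821. Of 19 upstream transcription factor genes and targets of Hox and PBC proteins, 1 had an optimal promoter summit, the nuclear receptor gene nhr-25 (105, 72 bp downstream of its start), and 6 had one in the gene window. The shares of that list were 5.26% and 31.6%, and the second is near that of all genes. Its gene windows had a median of 15.2 kb.

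Among the 59 other genes named ceh, 5 had an optimal promoter summit (8.47%) and 20 had one in the gene window (33.9%). They were led by ceh-38 (signal 343), ceh-39 (270) and ceh-100 (190), of which the first pair are ONECUT homeobox genes, and the summit of ceh-100 was nearer to lips-15. These shares were close to those of all genes.

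**Figure D4:**
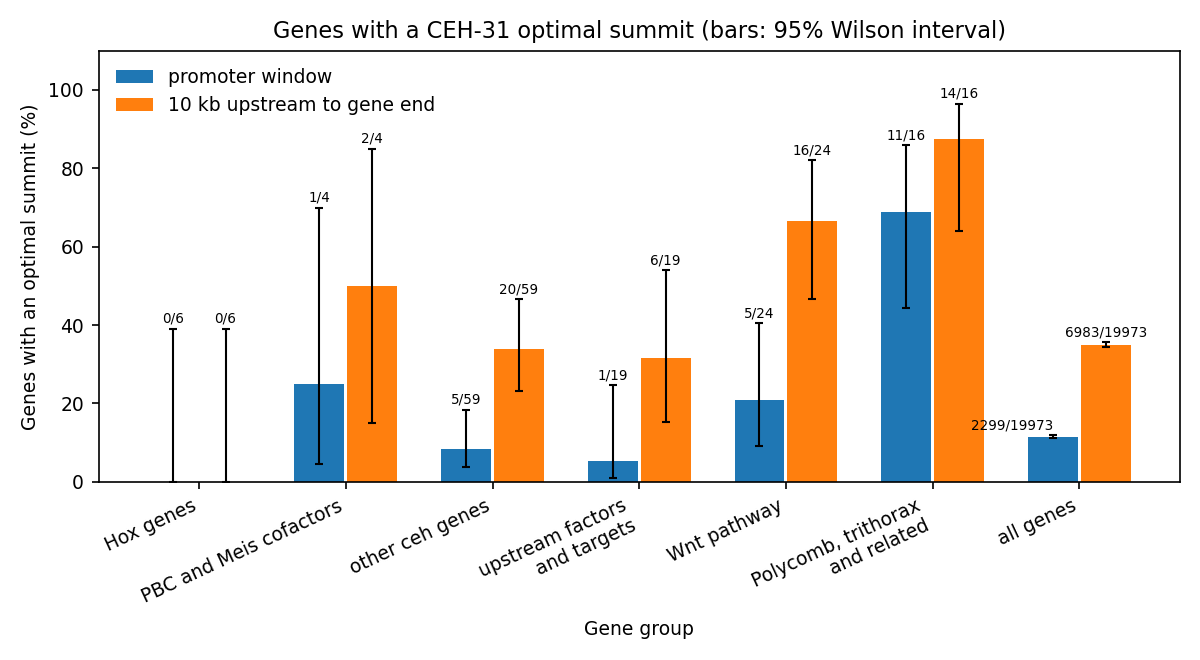
Bars give the percent of genes with an optimal summit in the promoter window (blue) and in the gene window (orange) for the Hox genes, their cofactors, the related lists and all protein-coding genes, with 95% Wilson intervals as error bars and the counts above them. The Hox bars are at 0 of 6, and the Polycomb, trithorax and related genes have the tallest bars, 11 of 16 and 14 of 16.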

How the data were processed

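Peaks were those of 2 replicates of a tagged CEH-31 pull-down. The authors deposited lists in ce10 and ce11; the 4 ce11 lists (optimal, pooled and 1 per replicate) were used, and the ce10 lists were not used here. Relaxed lists were made from alignments and a control, and the optimal list from those of the replicates and their pool, per the deposited notes. The sources used here name no aligner, peak caller, version or threshold. Columns deposited by the authors that were used are the peak signal, the −log10 q and the summit offset, which is a distance in bp.

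Summits were the peak start plus the offset, in 1-based coordinates. Genes came from Ensembl release 115 (WBcel235) and sequence from the RefSeq copy of that assembly. Ranks follow the signal within a list. Summits of 2 lists within 200 bp were matched to the nearest. Where 95% Wilson intervals are given with shares, they cover the number of genes and no other error. They treat the genes as independent draws, although members and lists were chosen by name. No test was run, since there was 1 group. Counting of summits and cores was tested on simulated data. Python 3.11.15, pandas 2.3.3 and scipy 1.17.1 were used.

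The named genes were the 10 members, genes nearest to their summits, and the 3 genes of each list with the strongest optimal promoter summit; the others of the Polycomb and trithorax list, and the neighbours of other summits (among them lin-13, ncl-1, rpl-9, cux-7 and rpl-35) were named after their values were seen. Members and lists were chosen with earlier results of these data known. Alternatives changed the windows, the peaks counted, the replicate and the matching distance. The sequence at 1 unc-62 summit is not reported here.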

Additional observations from a re-analysis of the deposited data

How the results depend on the processing

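The count of 2 members with an optimal summit in the gene window was the same under every alternative tried. The count of 1 with an optimal promoter summit was 0 with a promoter window of 500 to 100 bp and 2 with the start of any transcript, since unc-62 then counts. For the pooled list the promoter count of 5 was 2 with the window of 500 to 100 bp. It was 6 with a window of 2000 to 500 bp and 7 with the start of any transcript. The 5 optimal summits became 3 with 5 kb upstream and 3 with the optimal peaks above the median signal. Leaving out 1 replicate, by taking the 3697 strongest peaks of the other, gave 4 to 6 summits, with 6 without replicate 1 and 4 without replicate 2, and the counts of 2 and 1 genes stood. The PBC-Hox core was in 2 of the 5 windows with 200 bp either side. Of the 50 pooled summits, 15 (30%) had a −log10 q of at least 1, near the 29.7% of all pooled summits. That cut was added after seeing the data. No paired analysis was possible because there was 1 group. The lists have no read counts, so the depth is unknown, and its part in the weaker summits was not tested.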

Other observations

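At ceh-40 each replicate list held a summit near the start, 65 bp upstream in replicate 1 (signal 22.7) and 131 bp upstream in replicate 2 (signal 20.6), yet the pooled list had no summit within 200 bp of either. Over the genome, 145 of 11962 replicate 1 summits with a replicate 2 partner within 200 bp (1.21%) had no pooled summit within 200 bp of the pair. In the other 9 member windows none of the replicate pairs lacked a pooled summit, and ceh-60 had no pair.

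Of the members with several annotated starts, unc-62 (15 starts) had pooled summits on both sides of internal starts. Those nearest lay 18, 66, 232 and 334 bp upstream of one and 66, 85 and 143 bp downstream, and the one 66 bp upstream was in the optimal list. In lin-39 a summit lay 35 bp upstream of the internal start, while in egl-5 and nob-1 no summit lay nearest to an internal start from upstream. With 15 starts in unc-62, many positions are near one. These distances were read after the values were seen.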
